A study of Mus musculus with 12 samples.

Results

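The genes described are the cytosolic heat shock proteins and their co-chaperones, 74 of the 23457 rows of a count table of mouse heart RNA. They were chosen by symbol alone: the Dnaja, Dnajb and Dnajc genes, the Hspa, Hspb, Hsph1 and Hsp90a genes, Bag1 to Bag6 and Cryab, without Hspa5, Hspa9 and pseudogenes. A symbol does not fix where a protein works. Of the 74, 8 were assigned to the endoplasmic reticulum (among them Dnajb9, Dnajb11 and Dnajc3). Another 5 were assigned to mitochondria (Dnaja3, Dnajc11, Dnajc15, Dnajc19 and Dnajc30). The others were taken as cytosolic, nuclear or not assigned and may include more proteins of these compartments, so the word cytosolic does not cover all members. By family there were 12 HSP70 and HSP110 genes, 2 HSP90 genes, 9 small heat shock genes, 4 DNAJA, 13 DNAJB, 28 DNAJC and 6 BAG genes.

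RNA came from 12 adult hearts of C57BL/6J background, 6 noninduced (floxed, without Cre) and 6 Parkin KO (floxed, MERCreMer, induced). All samples carry the same time label, 9 to 10 weeks after tamoxifen. Parkin is the ubiquitin ligase that tags damaged mitochondria, and the design asks what its loss in the adult heart does to messenger RNA. Because Cre is labelled in the Parkin KO group only, Parkin loss and the recombinase itself cannot be told apart. The labels give whole heart as tissue and ventricular apex as the piece frozen, and they do not say which exons are floxed or which promoter drives MERCreMer.

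Chaperones bind unfolded protein chains and let them fold, or pass them on for destruction. HSP70 works through cycles of ATP hydrolysis that DNAJ proteins start and that nucleotide exchange factors, the BAG proteins and HSP110, end, while HSP90 finishes the folding of kinases and steroid receptors. Small heat shock proteins hold misfolded proteins without using ATP. In heart muscle they guard desmin, titin and filamin, and BAG3 links them to HSP70 for selective autophagy. Heat shock factor HSF1 switches on the inducible members through heat shock elements, which are alternating GAA and TTC units.

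Total counts ran from 11610507 to 16884516 per library (15229300 ± 1205840 in Parkin KO and 14797300 ± 2098500 in noninduced, SD, n = 6 each, 2-sided exact permutation p = 0.664). Park2, the row of the Parkin gene, held 24 to 45 reads in noninduced and 24 to 45 in Parkin KO libraries. That count covers the whole gene, so it cannot check an exon deletion. Esr1, on which reads of MERCreMer can fall, was at 1553 to 4683 CPM (counts scaled to the TMM-adjusted library size) in Parkin KO and 24.0 to 962 CPM in noninduced libraries, the highest noninduced values being 558 in library 1 and 962 in library 3, which go against their label. Y-linked reads numbered 495 to 634 in libraries 2, 5 and 6 of the Parkin KO group, whose Xist was below 20 CPM and which were taken as male, and no noninduced library was of this kind; noninduced library 3 held 178 Y-linked reads beside Xist at 77.2 CPM, and the other 8 held at most 7. All 10 cardiomyocyte markers were tested and summed to 73725 to 106711 CPM in the noninduced group and 91992 to 112351 CPM in Parkin KO libraries. The labels give no animal for a sample, so p-values measure the spread between these samples, here called hearts.

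Promoter letters were available from RefSeq (GRCm38.p6) for 59 of the 74 genes, in windows of 250 bases before to 50 after the annotated start. The pair GAANNTTC, the shortest heat shock element and its own reverse complement, occurred in 13 of these 59 genes (22.0%), against 9.04% of 27025 genes with such a window. The 13 were Hspa1a, Hspa1b, Hsph1, Hspb1, Hspb3, Hspb6, Hspb8, Bag3, Dnaja1, Dnaja4, Dnajb6, Dnajc27 and Dnajc5g. The other pair, TTCNNGAA, also its own reverse complement, occurred in 4 (6.78%, against 9.6%), and a run of 3 units (GAANNTTC followed by NNGAA, or the reverse complement, either of which contains both pairs) in 2, Dnajb6 and Hsph1 (3.39%, against 0.662%). The stretches below hold the pair wholly upstream of the RefSeq start. They are shown because they belong to inducible or muscle genes described below, or, for Dnajb6, hold a run of 3 units. Such stretches of Hspb3, Dnaja4 and Dnajc27 are not printed. By GENCODE M21 positions, the stretches of Dnaja1, Hspb6 and Dnajb6 lie within the gene, whose start there is farther upstream. Capitals mark the GAA and TTC units.
Hspa1a, chr17:34972233-34972280, minus strand: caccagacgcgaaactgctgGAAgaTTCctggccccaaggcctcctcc
Hspa1b, chr17:34959315-34959362, minus strand: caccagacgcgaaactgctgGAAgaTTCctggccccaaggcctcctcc
Dnaja1, chr4:40722324-40722371, plus strand: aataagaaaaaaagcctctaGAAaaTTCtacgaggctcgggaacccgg
Hspb1, chr5:135887782-135887829, plus strand: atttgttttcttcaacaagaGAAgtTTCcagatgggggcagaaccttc
Hspb1, chr5:135887802-135887849, plus strand: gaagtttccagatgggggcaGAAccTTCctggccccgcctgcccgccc
Hspb6, chr7:30553161-30553208, plus strand: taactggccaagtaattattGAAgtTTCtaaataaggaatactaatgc
Dnajb6, chr5:29735832-29735879, plus strand: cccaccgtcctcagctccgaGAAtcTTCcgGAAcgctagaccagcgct
The pair lies 104 to 97 bases before the start in both Hspa1a and Hspa1b, and the stretches printed for these neighbouring genes on chromosome 17 are the same letters. Dnajb6 holds 3 units in a row. A match of letters is a description and shows no binding.

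The most abundant messages of the set were those of small heat shock proteins. Per length, in deposited FPKM (reads scaled to transcript length and library size), Cryab, the lens and muscle chaperone alpha-B-crystallin, stood at 4687 ± 1239 (SD, n = 6) in noninduced hearts. Hspb7, a heart chaperone that binds filamin C, was at 2335 ± 390.4 and Hspb6, which is phosphorylated downstream of cyclic AMP and cyclic GMP, at 1617 ± 349 FPKM. The constitutive HSP70, Hspa8, followed at 653 ± 63.6 and the constitutive HSP90, Hsp90ab1, at 638 ± 85.0 FPKM, 2 levels within each other's SD. Hspb1 (422 ± 86.8), Bag3 (320.5 ± 55.9), Hspb8, the partner of BAG3 (261 ± 45.5), Hspb2 (188 ± 13.9) and Bag6 (108 ± 5.96) completed the 10 members at 100 FPKM or more. Exons of Cryab and Hspb2 overlap on opposite strands (17.0% of Cryab and 30.2% of Hspb2 exon bases), and libraries without strand cannot divide those reads.

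The inducible HSP70 genes were among the low ones. Hspa1a and Hspa1b, the classic heat-induced HSP70 pair, stood at 2.96 ± 0.847 and 2.73 ± 0.958 FPKM, and Hsp90aa1, the inducible HSP90, at 27.9 ± 11.1 FPKM. Of the DNAJ proteins, which bring clients to HSP70, Dnajb5 was highest in its class (91.3 ± 30.1), Dnaja3 among DNAJA (58.1 ± 7.17) and Dnajc15 among DNAJC (74.4 ± 24.1 FPKM). In all, 23 members were between 10 and 100 FPKM and 41 below 10, of which 9 were below 1. Those 9 (Dnajb3, Dnajb7, Dnajb8, Dnajb13, Dnajc5b, Dnajc5g, Dnajc6, Dnajc22 and Hspb9) had 0 to 10 reads in any library and did not pass the low-count filter. Dnajb8 had 0 reads in all 12 libraries, which allows at most 0.164 to 0.284 CPM per library (3 counts).

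**Figure D1:**
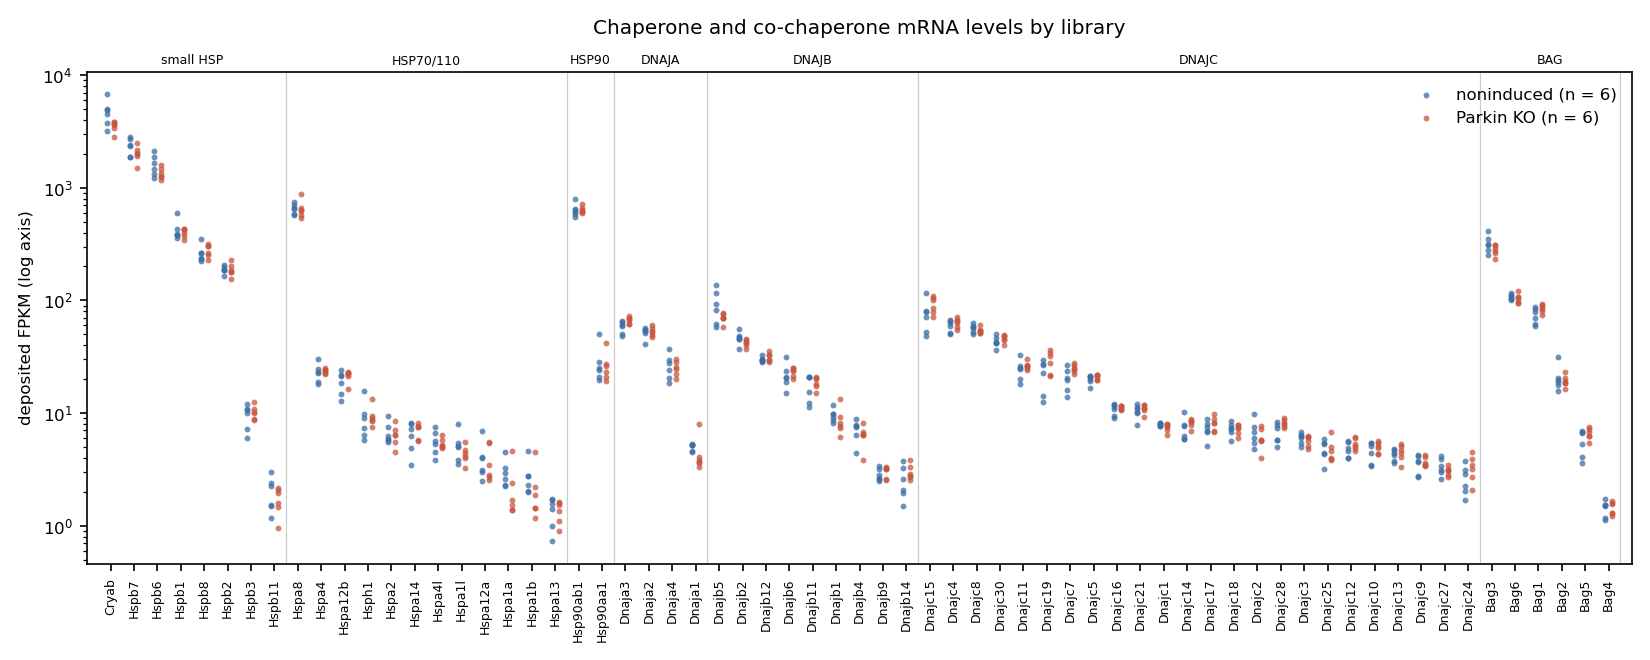
Deposited FPKM of the 65 members at a mean of 0.5 or more in noninduced hearts (log vertical axis), 1 point per library, grouped by family and ordered by the noninduced mean. Cryab, Hspb7 and Hspb6 lie at 1171 FPKM or more in every heart of both groups.

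Hspa1a had lower CPM in 5 of 6 Parkin KO hearts than in any noninduced heart, and the exception was Parkin KO heart 1. It lies at chromosome 17, 34969190 to 34972156 of GRCm38, next to Hspa1b at chromosome 17, 34956436 to 34959238. Hspa1a stood at 2.13, 2.56, 1.49, 1.99, 1.84 and 1.64 CPM in noninduced hearts 1 to 6 and at 2.54, 0.73, 0.839, 1.05, 0.496 and 0.768 CPM in Parkin KO hearts 1 to 6. Behind these values lie 7 to 38 reads per library. The separation did not hold in the deposited FPKM. There Parkin KO heart 4, at 2.38 FPKM, also lay above noninduced hearts 1 (2.28) and 3 (2.24). The log2 fold change was -0.84 ± 0.32 (SE), and it did not pass (edgeR quasi-likelihood test, Benjamini-Hochberg adjusted p = 0.424). Hspa1b, its neighbour, showed the same heart as the highest of its group. Hspa1b stood at 1.33, 3.13, 1.10, 1.45, 1.66 and 0.986 CPM in noninduced hearts 1 to 6 and at 2.47, 0.584, 1.44, 0.993, 0.851 and 0.384 CPM in Parkin KO hearts 1 to 6. The groups overlapped and the log2 fold change was -0.48 ± 0.40 (SE) (adjusted p = 0.613). These genes are near copies: 58.8% of the 50-base stretches of Hspa1a transcripts also occur in Hspa1b, so that both values are uncertain, and 19.0% of Hspa1a exon bases overlap Gm20481 on the opposite strand.

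Parkin KO heart 1 stood above the other hearts of its group for each of 8 genes of the HSP70, HSP90, HSP110 and DNAJ families plotted by heart. This did not hold for these families as a whole. Dnaja4 and Hspa2 were also highest of the group there, but Dnaja2, Dnajb6 and Hspa4 were not, and Dnaja3 was lowest there. Among the hearts of both groups, Parkin KO heart 1 was the highest for 6 tested members (9.23%, against 7.92% of all genes). Its atrial marker genes were also the highest of the group, at a sum of 1547 CPM against 157.7 to 481 CPM in the other 5. Its Esr1 was the lowest of the group, at 1553 CPM against 2902 to 4683 CPM in the other 5. The part of either in these values was not tested. Dnaja1 is a DNAJ partner of HSP70. Dnaja1 stood at 24.1, 27.5, 25.7, 24.5, 21.8 and 23.5 CPM in noninduced hearts 1 to 6 and at 39.9, 16.9, 17.0, 17.3, 19.6 and 17.3 CPM in Parkin KO hearts 1 to 6. Parkin KO hearts 2 to 6 lay below every noninduced heart, and heart 1 lay above them all. Dnajb1 is the DNAJ protein best known from the heat shock response. Dnajb1 stood at 23.1, 27.7, 20.3, 16.6, 19.5 and 17.1 CPM in noninduced hearts 1 to 6 and at 28.1, 13.4, 16.2, 19.1, 16.9 and 15.2 CPM in Parkin KO hearts 1 to 6. Its groups overlapped (log2 fold change -0.18 ± 0.17 (SE), adjusted p = 0.65), as did those of Dnaja1 (-0.20 ± 0.19 (SE), adjusted p = 0.665).

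Without Parkin KO heart 1, a choice made after seeing the data, Hspa1a was at -1.29 ± 0.22 (unadjusted p = 5.64e-05, edgeR adjusted p = 0.185) and Dnaja1 at -0.47 ± 0.09 (unadjusted p = 7.77e-05, edgeR adjusted p = 0.199). Neither passed. Both then had Parkin KO CPM values wholly below the noninduced ones, which held for 60 of 13123 genes (0.457%). Dnaja3, for which heart 1 was the lowest of the group, then lay wholly above the noninduced values. It was at 0.20 (unadjusted p = 0.016, edgeR adjusted p = 0.32), and the share of all genes on that side is not reported here. Leaving out the highest heart of a group must lower its mean. Dnajb1 was then at -0.35 and Hspa1b at -0.87. Sex is a second limit, since the 3 male hearts were all Parkin KO, and they held the 3 lowest Hspa1a values of all 12 hearts, 0.496, 0.73 and 0.768 CPM, the next being 0.839 CPM. With a term for sex over all 12 hearts, Hspa1a was at -0.39 (edgeR, unadjusted p = 0.24), and Hspa1b, Dnajb1 and Dnaja1 turned to 0.05, 0.03 and 0.01. No noninduced heart was taken as male, so the group term of this fit compares only Parkin KO hearts 1, 3 and 4 with noninduced hearts. Heart 1, the highest of its group for these genes, is among them, so this fit cannot tell sex and heart 1 apart. Dnaja1 was at 16.9, 19.6 and 17.3 CPM in the male hearts and at 17.0 and 17.3 CPM in Parkin KO hearts 3 and 4. In the deposited FPKM Hspa1a was at -0.38 on the log2(FPKM + 1) scale.

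Hsp90aa1 had 1 high heart in each group, and its group means were close. Hsp90aa1 stood at 60.8, 63.8, 68.0, 66.7, 72.7 and 128 CPM in noninduced hearts 1 to 6 and at 114, 55.8, 57.5, 63.1, 74.6 and 70.0 CPM in Parkin KO hearts 1 to 6. Noninduced heart 6 and Parkin KO heart 1 stood apart from the other 10. Atrial genes summed to 4083 CPM in noninduced heart 6. They summed to 5987 and 3330 CPM in noninduced hearts 5 and 2, where Hsp90aa1 was at 72.7 and 63.8 CPM. The part of atrial tissue in these values was not tested. Hsph1, the HSP110 that recharges HSP70 with ATP, was high in the same hearts. Hsph1 stood at 22.0, 24.0, 34.5, 24.2, 28.5 and 49.4 CPM in noninduced hearts 1 to 6 and at 45.0, 26.6, 32.1, 28.3, 29.1 and 30.1 CPM in Parkin KO hearts 1 to 6. Log2 fold changes were -0.08 ± 0.20 (SE) for Hsp90aa1 and 0.06 ± 0.19 (SE) for Hsph1 (edgeR, adjusted p = 0.881 and 0.902).

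**Figure D2:**
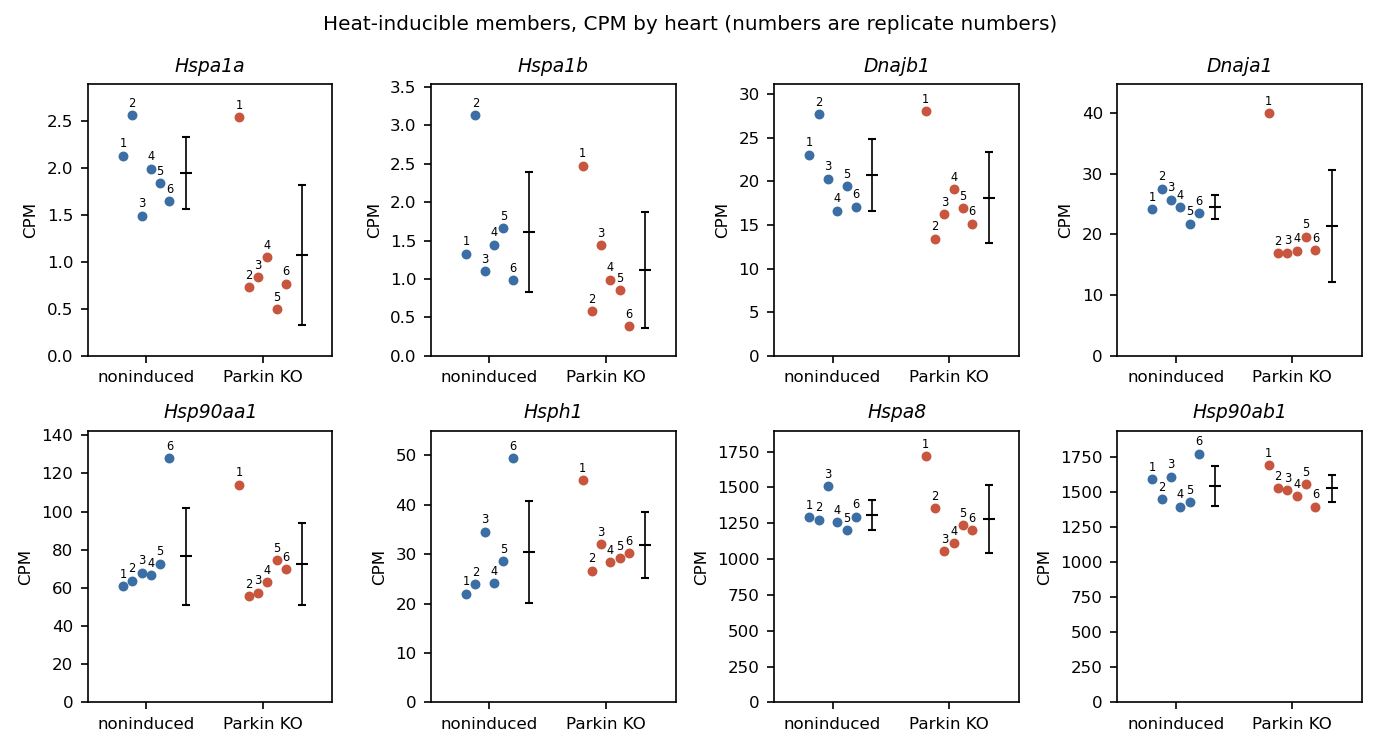
CPM of 8 heat-inducible or constitutive HSP70, HSP90, HSP110 and DNAJ genes by heart, with replicate numbers beside the points and mean ± SD (n = 6) to the right of each group. Parkin KO heart 1 is the highest of its group in all 8 panels, and Hsp90aa1 and Hsph1 are also high in noninduced heart 6.

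The abundant constitutive chaperones differed between groups by less than their SD within a group. Hspa8 was at 1306 ± 105 CPM in the noninduced group and 1279.8 ± 239 CPM in Parkin KO hearts (SD, n = 6 each), with a 95% interval of the log2 fold change of -0.28 to 0.22. Hsp90ab1 was at 1540.2 ± 144 and 1526 ± 98.1 CPM, with an interval of -0.21 to 0.18. For Hspa4, an HSP110-type exchange factor, the interval was -0.13 to 0.21. Hspa12b, an endothelial HSP70 relative, was at 53.8 ± 8.59 and 60.7 ± 5.89 CPM, and Hspa12a varied most among tested members of its family after Hspa1b, from 13.3 to 38.8 CPM in noninduced hearts. Hspa8, Hsp90ab1, Hspa4, Hspa12a and Hspa12b did not pass (edgeR, adjusted p from 0.517 to 0.957).

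Cryab, Hspb7 and Hspb6 were all highest in noninduced heart 1, and their Parkin KO hearts were closer together than the noninduced ones. Cryab lies at chromosome 9, 50751325 to 50756636 of GRCm38 and Hspb7 at chromosome 4, 141420779 to 141425311. Cryab stood at 7786, 5521, 4788, 3679.6, 3021 and 4762 CPM in noninduced hearts 1 to 6 and at 3923, 3622, 3693, 3708, 3867 and 2816 CPM in Parkin KO hearts 1 to 6. The groups overlapped, because noninduced hearts 4 and 5 lay within the Parkin KO range, and the log2 fold change was -0.45 ± 0.19 (SE) (edgeR, adjusted p = 0.424). Hspb7 stood at 8455, 7877, 6463, 4836, 4706 and 5953 CPM in noninduced hearts 1 to 6 and at 5266, 7027, 5698, 5006, 5392 and 3925 CPM in Parkin KO hearts 1 to 6. The Hspb7 groups overlapped (-0.24 ± 0.17 (SE), adjusted p = 0.559). Hspb6 stood at 2492, 1864, 1995, 1379, 1459 and 2325 CPM in noninduced hearts 1 to 6 and at 1569, 1947, 1473, 1344, 1697 and 1419 CPM in Parkin KO hearts 1 to 6. Hspb6 was high in noninduced hearts 1 and 6 (-0.29 ± 0.15 (SE), adjusted p = 0.456).

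Bag3, the autophagy link of the small heat shock proteins, was highest in noninduced heart 1. Bag3 stood at 1157, 843, 904, 680.2, 587 and 728 CPM in noninduced hearts 1 to 6 and at 717, 805, 763, 642, 672 and 569 CPM in Parkin KO hearts 1 to 6. Dnajb5, a DNAJ protein rich in heart and muscle, had the widest relative spread in noninduced hearts after Hspa1b among the 65 tested members, with a coefficient of variation of 41.1% there and 10.1% in Parkin KO hearts. Dnajb5 stood at 336, 277, 210.4, 124, 169 and 127 CPM in noninduced hearts 1 to 6 and at 167, 162, 152, 152, 163 and 124 CPM in Parkin KO hearts 1 to 6. Dnajb2, a DNAJ protein with ubiquitin-binding motifs, was at 149.5 CPM in noninduced heart 1 and between 96.7 and 111 CPM in the other noninduced hearts, against 90.7 to 101 CPM in Parkin KO hearts. Log2 fold changes were -0.23 ± 0.15 (SE) for Bag3, -0.44 ± 0.21 (SE) for Dnajb5 and -0.20 ± 0.10 (SE) for Dnajb2 (edgeR, adjusted p = 0.522, 0.441 and 0.448).

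Other measures differed between noninduced hearts as well. Genes of mitochondrial DNA took 16.0, 16.7 and 10.5% of counts in noninduced hearts 1, 2 and 3 and 5.17 to 9.53% in the other 9, and immediate-early genes summed to 2222, 1767 and 1362 CPM there against 614 to 1246 CPM elsewhere. Noninduced heart 6, with Cryab at 4762 CPM beside 4788 CPM in heart 3, had a mitochondrial share of 7.88% and an immediate-early sum of 1157 CPM, both within the range of the others. Between groups, 23 of 23 immediate-early genes had lower means in Parkin KO hearts, 12 of 23 at an unadjusted p under 0.05 (52.2%, against 5.54% of all genes lower), and 0 passed (edgeR). Without noninduced hearts 1 and 2, also chosen after seeing the data, log2 fold changes were -0.18 for Cryab, -0.04 for Hspb7, -0.20 for Hspb6, -0.07 for Bag3 and -0.05 for Dnajb5. Without noninduced heart 1 alone, Cryab was at -0.29. The part of these marks in the chaperone values was not tested. In bulk tissue, fewer cells of a type and less RNA per cell cannot be told apart.

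**Figure D3:**
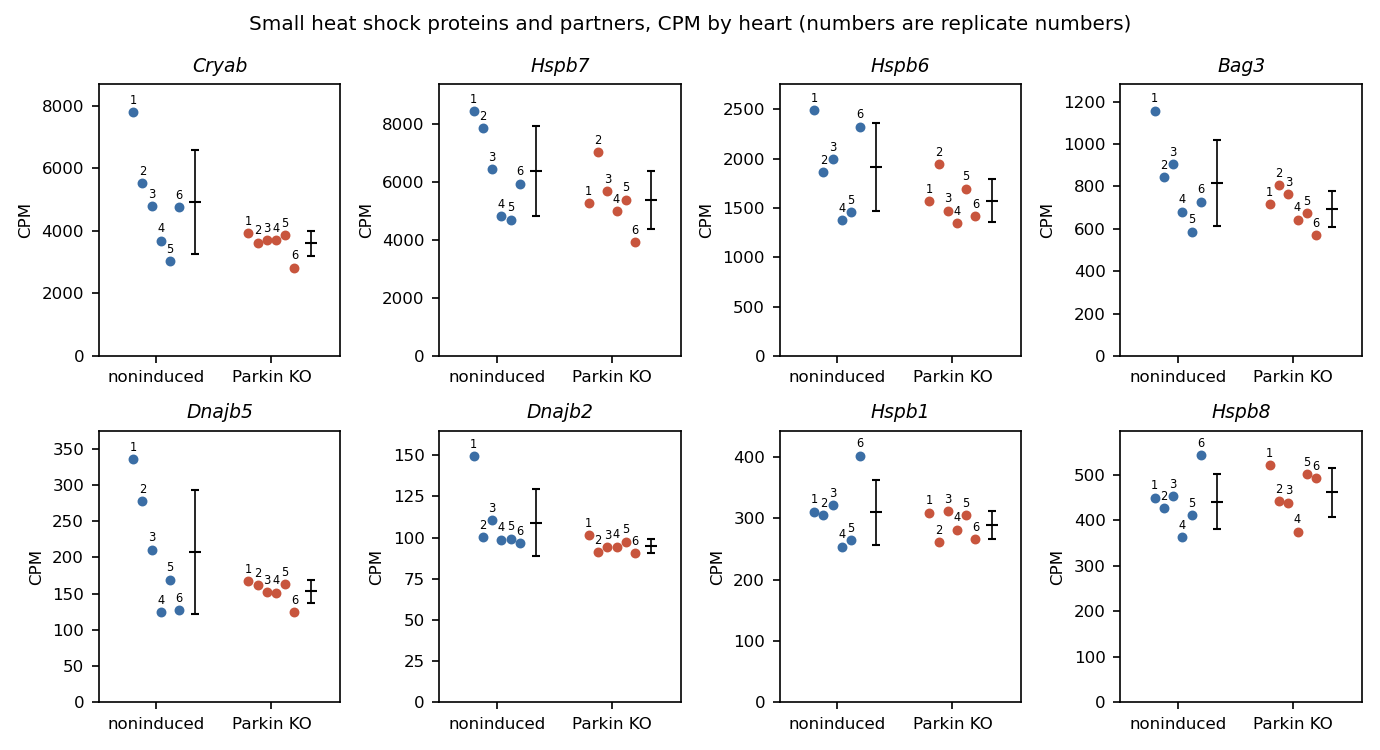
CPM of 4 small heat shock genes that lead the set or are heat-inducible (Cryab, Hspb7, Hspb6, Hspb1), of Hspb8 and of the partners Bag3, Dnajb5 and Dnajb2 by heart, with replicate numbers and mean ± SD (n = 6). Noninduced heart 1 is the highest of all 12 hearts for Cryab, Hspb7, Hspb6, Bag3, Dnajb5 and Dnajb2, while Hspb1 and Hspb8 are highest in noninduced heart 6.

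The remaining small heat shock genes did not share that order. Hspb1, the widely expressed inducible HSP27, was at 309.6 ± 52.7 CPM in the noninduced group and 289 ± 22.6 in Parkin KO hearts, Hspb8 at 441 ± 59.5 and 462 ± 53.9 and Hspb2 at 106 ± 12.7 and 102 ± 15.2 CPM (SD, n = 6 each). The muscle gene Hspb3 was at 5.66 ± 1.02 and 6.07 ± 0.778 CPM, and Hspb11, a part of the ciliary transport machinery that carries the family symbol and was singled out after its values were seen, at 0.726 ± 0.22 and 0.622 ± 0.161 CPM. Each difference was smaller than the SD within a group. Intervals of the log2 fold change were -0.33 to 0.13 for Hspb1 and -0.16 to 0.29 for Hspb8.

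On the higher side in Parkin KO hearts, the smallest p-values belonged to co-chaperones rather than to heat shock proteins. Dnajc7, which binds both HSP70 and HSP90, led them. Dnajc7 stood at 39.7, 33.5, 44.6, 56.5, 41.8 and 48.5 CPM in noninduced hearts 1 to 6 and at 58.2, 55.9, 51.6, 54.1, 47.7 and 59.3 CPM in Parkin KO hearts 1 to 6. Noninduced hearts 4 and 6 lay within the Parkin KO range and the other 4 below it (log2 fold change 0.30 ± 0.11 (SE), edgeR adjusted p = 0.424). Dnaja3, a mitochondrial DNAJ protein, ran from 129 to 153 CPM in the noninduced group and from 151 to 176 CPM in Parkin KO hearts (0.18 ± 0.07 (SE)). Bag1, the founding BAG exchange factor, ran from 79.8 to 97.3 CPM and from 92.6 to 109 CPM (0.19 ± 0.07 (SE)). Dnajc28 (0.27 ± 0.10 (SE)) and the mitochondrial Dnajc30 (0.20 ± 0.10 (SE)) followed. None of the 5 passed (edgeR, adjusted p = 0.424 for the first 4 and 0.438 for Dnajc30), and exons of Dnajc30 share 26.2% of their bases with Bud23 on the opposite strand.

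Other co-chaperones high in their family by FPKM differed by less than their SD in noninduced hearts. Dnaja4, a cytosolic partner of HSP70, was at 76.1 ± 14.1 CPM in noninduced against 73.1 ± 10.3 CPM in Parkin KO hearts (SD, n = 6 each). Its relative Dnaja2 had an interval of the log2 fold change of -0.18 to 0.21. Dnajb6, which keeps aggregating proteins soluble and was singled out for its promoter letters, was at 54.5 ± 9.94 and 57.4 ± 6.08 CPM. Dnajb12, of the endoplasmic reticulum membrane, was at 49.5 ± 4.79 and 51.2 ± 4.90 CPM, Dnajc4 at 40.2 ± 6.36 and 41.6 ± 4.50, Dnajc8 at 71.3 ± 9.18 and 66.5 ± 4.43, and Bag6, a guide of tail-anchored and faulty proteins, at 402 ± 53.4 and 382 ± 39.4 CPM (SD, n = 6 each). Dnajc15, a relative of the import motor's DNAJ protein, was at 34.4 ± 9.64 and 42.3 ± 6.44 CPM (0.30 ± 0.16 (SE), edgeR adjusted p = 0.46). Exons of Dnaja4 share 44.1% of their bases with Wdr61 on the opposite strand.

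Counted over the set, 0 of 65 tested members passed, as did 0 of 13050 genes (0%). The smallest adjusted p was 0.424 among members and 0.417 over all genes. At an unadjusted p under 0.05 there were 6 members, 4 higher (Dnajc7, Dnaja3, Bag1 and Dnajc28) and 2 lower (Hspa1a and Cryab), or 9.23%, against 11.4% of all tested genes (5.82% higher and 5.54% lower). DESeq2 called 10 genes (0.0888% of 11267) and 0 members. Groups did not overlap for 0 members, against 0.345% of genes. Log2 fold changes were above 0 for 32 and below 0 for 33 members (all genes 52% above 0), with a median of -0.01 beside 0.01 for all genes. By family the medians were -0.17 for 8 small heat shock genes, -0.04 for 12 HSP70 and HSP110 genes, 0.06 for 24 DNAJC genes and -0.05 for 6 BAG genes. The 5 members assigned to mitochondria were all above 0 with a median of 0.20. The 8 assigned to the endoplasmic reticulum had 5 above and 3 below 0, and of the 52 others 22 were above and 30 below 0.

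**Figure D4:**
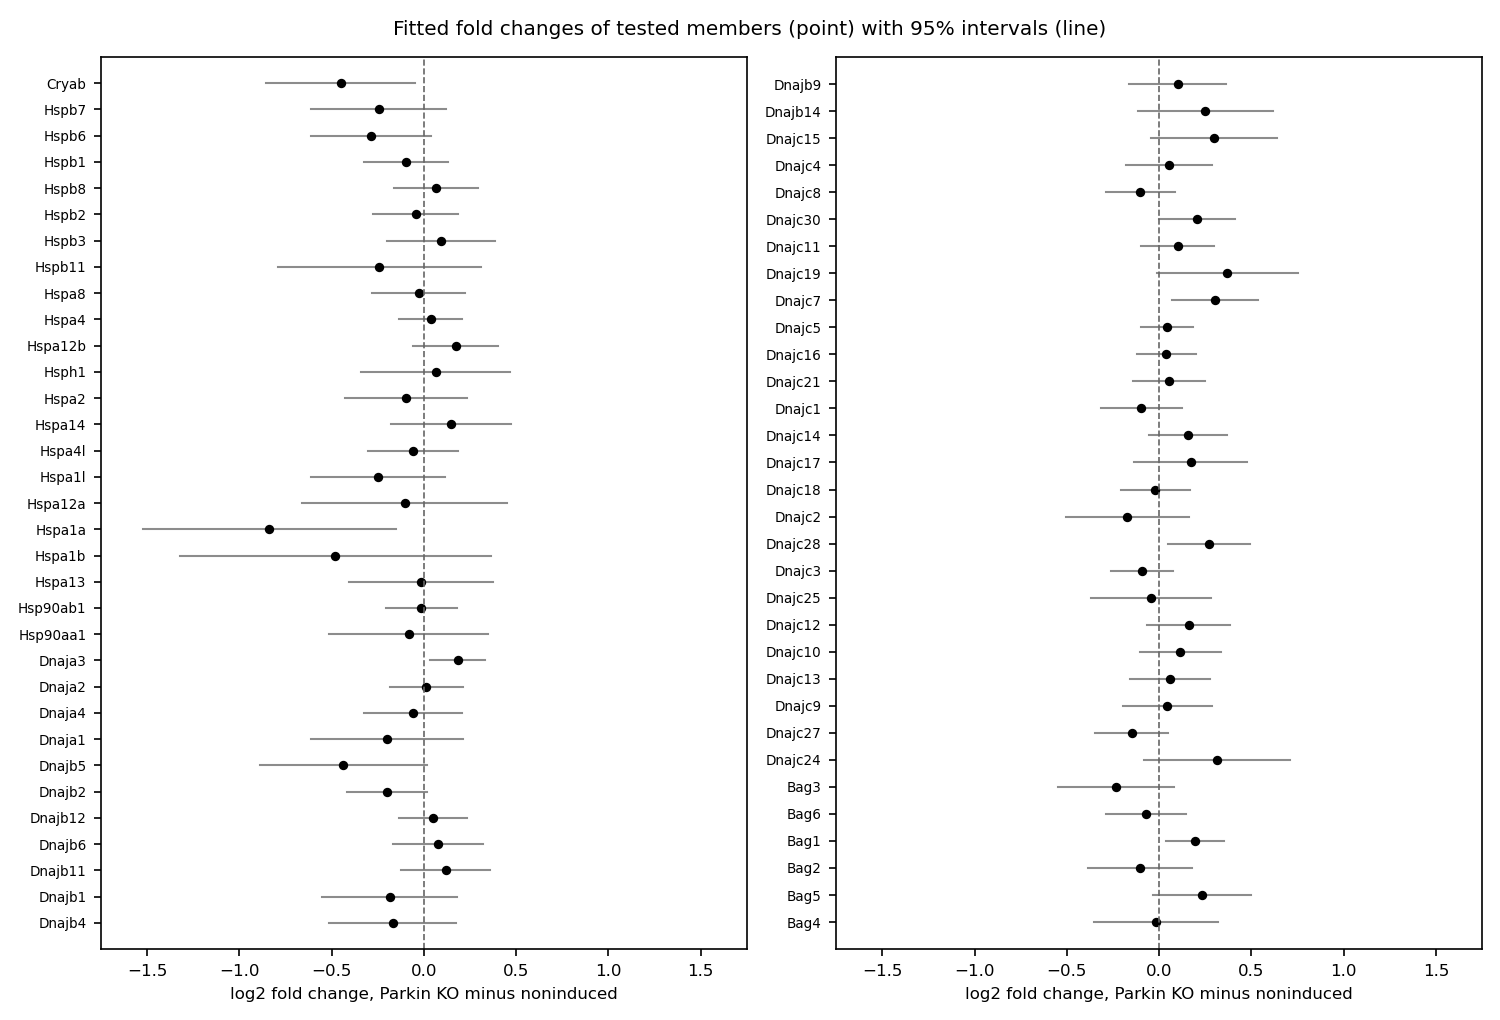
Log2 fold change, Parkin KO minus noninduced, of the 65 tested members (points) with 95% intervals (lines) from the fit over all genes, ordered by family and FPKM. Intervals of Hspa1a, Cryab, Dnajc7, Dnaja3, Bag1 and Dnajc28 leave out 0 before adjustment, and none passes after it.

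The intervals limit how large a difference could have been missed. Their median half-width was 0.244 log2 units, and for 63 of 65 members the interval lay within 1 log2 unit of 0, the exceptions being Hspa1a and Hspa1b. Spread within a group was larger in noninduced hearts for 50 of 65 members (76.9%), with a median coefficient of variation of 17.2% against 11.7% in Parkin KO hearts. Over all tested genes this held for 64.5%, with medians of 17.1 and 14.1%. Noninduced heart 6 was the highest heart for 17 members (26.2%, against 12.3% of all genes) and noninduced heart 1 for 10 (15.4%, against 17.8%).

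The partners of these chaperones were read from lists chosen by function. HSF1, the master factor of the response, was at 65.5 ± 12.3 CPM in noninduced hearts and 56.7 ± 2.70 CPM in Parkin KO hearts (SD, n = 6 each), and Hsbp1, which binds HSF1, was at 0.21 ± 0.09 (SE) on the log2 scale. Of 5 tested genes of HSF factors and their regulators, 2 were above 0, Hsf2 and Hsbp1. Of 21 HSP90 co-chaperones 16 were above 0 with a median of 0.10, and those of smallest p were Ttc4 (0.19 ± 0.08) and the muscle protein melusin, Itgb1bp2 (0.24 ± 0.11). Of 7 HSP70 co-chaperones 5 were above 0, with Stub1, the ubiquitin ligase CHIP that destroys chaperone clients, at 0.33 ± 0.13. The folding chamber TRiC had 7 of 8 subunits above 0 (median 0.16), led by Cct8 (0.31 ± 0.16) and Cct7 (0.15 ± 0.08). Prefoldin, which feeds it, had 5 of 5 tested subunits above 0 (median 0.24), led by Pfdn4 (0.64 ± 0.23) and Pfdn5 (0.26 ± 0.11). Its subunit Pfdn6 had no row. Noninduced hearts 1 and 2 were the lowest for both sums. TRiC summed to 358 and 330 CPM there and to 421 to 499 CPM in the other hearts. For prefoldin the sums were 133 and 122 CPM there and 138 to 170 CPM elsewhere. The part of these hearts in the fold changes was not tested. Of 6 partners of BAG3, 2 were above 0, and those of smallest p were Wipi1 (0.21 ± 0.11) and Lats1 (-0.20 ± 0.13). In these 6 lists 0 of 52 tested genes passed (edgeR). At an unadjusted p under 0.05, 7 of the 52 were higher and 0 lower. Of all genes 5.82% were higher and 5.54% lower at that threshold, or 11.4% on both sides.

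Members were also compared with each other across the 12 hearts. For Hspa1a, 10 relations were computed on log2(CPM + 0.5) with permutation tests, adjusted over the 10. Hspa1a went with Hspa1b (r = 0.79, permutation p = 0.00178, adjusted p = 0.0135; rho = 0.84, permutation p = 0.00114, adjusted p = 0.0114) and with Dnajb1 (r = 0.78, permutation p = 0.0027, adjusted p = 0.0135; rho = 0.79, permutation p = 0.00317, adjusted p = 0.0158). Without Parkin KO hearts 2 and 5, the pair farthest from the median of Hspa1a, r was 0.78 and 0.78. Within noninduced hearts r was 0.86 and 0.68, and within Parkin KO hearts 0.78 and 0.88 (n = 6 each, exact permutation p from 0.0264 to 0.122). Reads shared by Hspa1a and Hspa1b bear on the first of these relations. The other 8 relations, with Hsph1, Hsp90aa1, Hspa8, Hspb1, Bag3, Cryab, Fos and the mitochondrial share, did not pass (adjusted p from 0.191 to 0.903). Hsph1 was at r = 0.88 within Parkin KO hearts and -0.74 within noninduced hearts (exact permutation p = 0.0806 and 0.0958).

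Further relations, around Hsp90aa1 and Cryab, were chosen after the values had been seen, and they serve as description. Of 11 for Hsp90aa1, the one with Hsph1 passed (r = 0.85, permutation p = 0.00337, adjusted p = 0.0371; rho = 0.62, permutation p = 0.0346, adjusted p = 0.381), and it rested on 2 hearts, since r was 0.23 without noninduced heart 6 and Parkin KO heart 1. Of 8 for Cryab, 7 passed by Pearson's r (permutation tests, adjusted p of at most 0.00463) and Hspb2, whose exons overlap Cryab, did not (r = 0.28). By rank, 6 passed (rho from 0.62 to 0.85, permutation tests, adjusted p of at most 0.0457), and the mitochondrial share did not (rho = 0.60, permutation test, adjusted p = 0.0504). Bag3 (r = 0.91), Hspb7 (0.86), Hspb6 (0.80) and Fos (0.80) kept r of 0.78, 0.72, 0.71 and 0.77 without noninduced hearts 1 and 2, the farthest from the median. The mitochondrial share went from r = 0.78 to 0.32, Dnajb5 from 0.81 to 0.32 and Dnajb2 from 0.82 to 0.58 (permutation p = 0.0802 for Dnajb2). The relation with the mitochondrial share thus rested on those hearts. The relations with Dnajb5 and Dnajb2 weakened without them, and r within Parkin KO hearts, which include neither, was 0.96 and 0.72. Within that group, Parkin KO heart 6 stood apart as low for both Cryab and Dnajb5. Cryab was at 2816 CPM there (others 3622 to 3923) and Dnajb5 at 124 CPM (others 152 to 167). The r without that heart was not computed. Within Parkin KO hearts r was 0.66 for Bag3, 0.66 for Hspb7, 0.31 for Hspb6, 0.96 for Dnajb5, 0.72 for Dnajb2, 0.88 for Fos and 0.06 for the mitochondrial share (n = 6, exact permutation p from 0.0194 to 0.946). Within noninduced hearts r was 0.95 for Bag3, 0.95 for Hspb7, 0.85 for Hspb6, 0.75 for Dnajb5, 0.77 for Dnajb2, 0.72 for Fos and 0.81 for the mitochondrial share (n = 6, exact permutation p from 0.00139 to 0.108).

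**Figure D5:**
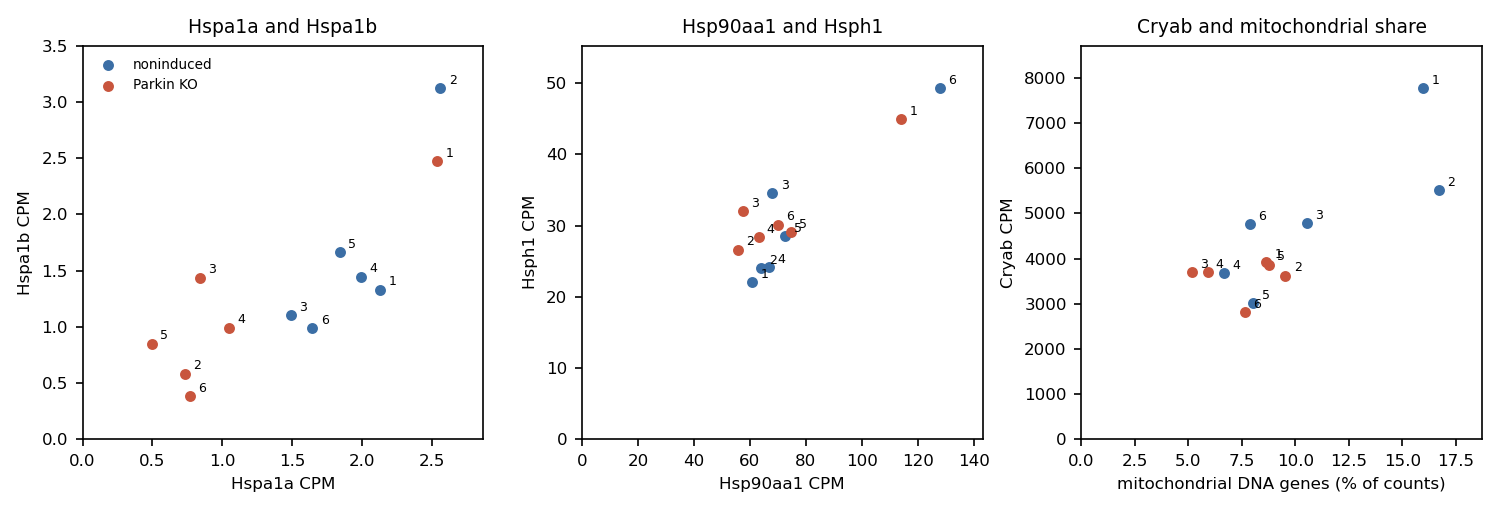
Each point is 1 heart, with its replicate number: Hspa1b against Hspa1a CPM, Hsph1 against Hsp90aa1 CPM, and Cryab CPM against the percent of counts from mitochondrial DNA genes. In the middle panel noninduced heart 6 and Parkin KO heart 1 lie apart from the other 10 hearts, and in the right panel noninduced hearts 1 and 2 lie at 16.0 and 16.7%.

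Markers of other cells were set beside these values, and 0 genes of these lists passed. The 6 atrial genes summed to 120.6 to 5987 CPM in the noninduced group and 157.7 to 1547 CPM in Parkin KO hearts, with 6 of 6 at an unadjusted p under 0.05 and lower in Parkin KO, and noninduced hearts 2, 5 and 6 and Parkin KO heart 1 were the 4 highest. Endothelial genes (7 of 7 tested, 4 above 0) summed to 978 to 1199 and 1007 to 1169.8 CPM, and macrophage genes (7 of 7, 3 above 0) to 164 to 215 and 138 to 206 CPM, with 2 of 7 (Cd68 and C1qb) at an unadjusted p under 0.05 and lower in Parkin KO (28.6%). Fibroblast genes (8 of 8, 2 above 0) summed to 686 to 1772 and 597 to 1181 CPM and smooth muscle genes (7 of 7, 1 above 0) to 600.2 to 944 and 587 to 759 CPM, with 2 of the 7 smooth muscle genes (Tagln and Cnn1) at an unadjusted p under 0.05 and lower (28.6%) and 0 of the 8 fibroblast genes. Lymphocyte and granulocyte genes reached at most 5.97 CPM and 0 of 4 adipocyte genes passed the low-count filter. The 4 hemoglobin rows (Hba-a1, Hba-a2, Hbb-b1 and Hbb-b2) held 0 reads in all 12 libraries while Alas2, the fifth red cell gene, reached 64.8 CPM. The part of cell composition in the chaperone values was not tested.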

How the data were processed

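Polyadenylated RNA of 12 mouse heart samples was sequenced as single reads without strand, per the labels' protocols. The deposited tables hold whole-number counts per gene and FPKM per gene. The submitters' processing notes name Bowtie2, TopHat2 2.0.10, HTSeq, Cufflinks 2.1, edgeR, DESeq and the mouse build mm10, with no roles; which annotation was used, and how multiply mapped reads were counted, is not given in these sources. Count columns named wt were matched to noninduced samples by their number.

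From the deposited counts, 13050 of 23457 genes passed filterByExpr (minimum count 10), and the groups were compared with edgeR 4.0.16 (TMM scaling, quasi-likelihood test, Benjamini-Hochberg adjustment over all tested genes, threshold 0.05) in R 4.3.3. CPM are counts scaled to the TMM-adjusted library size, 1 count being 0.0548 to 0.0948 CPM. On simulated data of 12950 genes, 1.5-fold changes were recovered in 34.3%, 2-fold in 70.1% and 3-fold in 93.9% of cases. Single library measures were compared by exact permutation over 924 splits, 2-sided, with a smallest possible p of 0.00216, and relations by 100000 permutations. DESeq2 1.42.0, limma 3.58.1 (voom, and log2(FPKM + 1) or + 0.1 on the deposited FPKM), other scalings and filters, a replicate block and each library left out were alternatives. Libraries of 1 group differed by more than sampling noise (lowest chi-square per degree of freedom 11.1, between Parkin KO 3 and 4). Positions are from GENCODE M21. The members and all gene lists were chosen with earlier results of these data known. Genes named are a heat-inducible and a muscle core, the 3 members of highest FPKM per family, the 5 of smallest p in each direction, the 3 of largest spread in noninduced hearts and, for each list of partners, the pair of smallest p, of which 1 gene is not reported here.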

Additional observations from a re-analysis of the deposited data

Results flagged for a closer look

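Values that stood apart from the rest of their group, by the gap to the nearest heart as a share of the group's range, were found in 11 of 66 groups of 6 hearts. Chance flags about 1 in 20 groups when groups are independent and unselected. Here several genes were chosen for their spread or p and genes of 1 heart move together, so that rate is no comparison for the 11. Parkin KO heart 1 was high for Hspa1a (2.54 CPM, others 0.496 to 1.05), Hsp90aa1 (114 CPM, others 55.8 to 74.6), Hsph1 (45.0 CPM, others 26.6 to 32.1) and Dnaja1 (39.9 CPM, others 16.9 to 19.6). Noninduced heart 6 was high for Hsp90aa1 (128 CPM, others 60.8 to 72.7). Noninduced heart 2 was high for Hspa1b (3.13 CPM, others 0.986 to 1.66), noninduced heart 3 for Hspa8 (1509 CPM, others 1202 to 1295) and noninduced heart 1 for Dnajb2 (149.5 CPM, others 96.7 to 111). Parkin KO heart 6 was low for Cryab (2816 CPM, others 3622 to 3923) and Dnajb5 (124 CPM, others 152 to 167), and Parkin KO heart 2 for Hspa12b (49.1 CPM, others 60.8 to 65.5).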

How the results depend on the processing

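No chaperone gene passed under any alternative run. Over all genes the count called was 0 with edgeR, 10 with DESeq2 and 1 without noninduced hearts 1 and 3, whose Esr1 goes against the label. The 6 members at an unadjusted p under 0.05 became 3 on deposited FPKM without a filter and 1 without noninduced hearts 1 and 2. Leaving out each heart in turn gave 3 (without noninduced heart 1) to 13 (without noninduced heart 4) such members and 0 calls throughout. Without Parkin KO heart 1 there were 10, beside 12.6% of all 13123 tested genes. The median log2 fold change of the members ran from -0.03 to 0.02 in these runs. Correlations of same-numbered hearts ran from -0.105 to 0.184 and 1 of 6 was best with its own number, so the numbers were not taken as pairs; the replicate block gave 10 members. The cause of these changes was not tested. Shares over all genes are not reported here for the other runs, so these counts are not read as results about the members. Omission of hearts and the sex term were chosen after seeing the data, except single hearts. At the depth of 7 to 38 reads, Hspa1a is limited by counting.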
